A study of Mus musculus with 2 samples.

Results

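Irx1, Irx2, Pou3f4, Gc, Ttr and Hhex are genes of the non-beta endocrine cells of the islet other than the hormone genes. The first 5 are known from glucagon-producing alpha cells and Hhex from somatostatin-producing delta cells. They were chosen from results of the same contrast that is described here, so their differences are given as a description and with no p-value. The 6 genes have 8 probes, out of 24278 genes and 55681 probes on the array, and 7 of the 8 probes, covering 5 genes, passed the filter on dim probes.

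RNA came from isolated pancreatic islets of C57BL/6J mice that were 8 weeks old. One group of 4 one-colour arrays holds islets from mice that had lost 60% of the pancreas to surgery 3 days earlier (pancreatectomy), and the other group of 4 arrays holds islets from mice 3 days past a sham operation. The labels name neither the animals nor the islet preparations behind each array, so errors and p-values measure only the spread between arrays, which may be technical in part. All arrays lie on 1 slide, with pancreatectomy in columns 3 and 4 and sham in columns 1 and 2, so group and slide column cannot be told apart, while both groups are found in each of the 2 slide rows.

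Irx1 and Irx2 encode homeodomain transcription factors of the Iroquois family, whose genes lie in clusters. In the embryonic mouse pancreas both are known from glucagon cells, and their expression there depends on Neurog3, the factor that starts the endocrine programme. Pou3f4, also called Brain-4, is a POU-domain factor of early alpha cells. Gc encodes the vitamin D-binding protein and Ttr encodes transthyretin, which carries thyroxine and, bound to retinol-binding protein, retinol. Both proteins are secreted in bulk by the liver and are also made in alpha cells. Hhex is a homeobox factor that mouse delta cells need to keep their identity.

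Promoter sequences are shown for Irx2 and Gc, because the first is the Iroquois gene with an entry in the RefSeq table used here and the second is the gene whose difference had the opposite sign. Each stretch is the 250 bases before the annotated start, 5′ to 3′ on the strand of the gene, on build GRCm38.p6. Capitals mark matches to any of 3 motifs searched on both strands: TGTTTAC (a FOXA core), ACANNTGT (an Iroquois site) and GTTAAT (the core of an HNF1 site).
Irx2 (chr13:72628570-72628819, plus strand): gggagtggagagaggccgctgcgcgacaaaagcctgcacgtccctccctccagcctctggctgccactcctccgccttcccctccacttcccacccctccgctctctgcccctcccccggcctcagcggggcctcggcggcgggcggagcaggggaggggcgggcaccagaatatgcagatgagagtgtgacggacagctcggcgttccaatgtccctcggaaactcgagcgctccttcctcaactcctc
Gc (chr5:89457899-89458148, minus strand): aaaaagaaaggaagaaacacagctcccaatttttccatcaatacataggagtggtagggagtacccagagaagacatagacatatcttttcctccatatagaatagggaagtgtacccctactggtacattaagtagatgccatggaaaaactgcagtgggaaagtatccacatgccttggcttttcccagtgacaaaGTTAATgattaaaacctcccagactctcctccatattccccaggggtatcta
The Irx2 stretch had a GC content of 68.4% and no match to the 3 motifs. The Gc stretch had a GC content of 42.0% and 1 match, a GTTAAT that begins 52 bases before the start. Of 32851 promoters of this length, 6.43% hold GTTAAT, 6.31% hold ACANNTGT and 3.17% hold TGTTTAC. Hhex and Pou3f4, with GC contents of 76.0% and 58.0%, had no match either. Entries matched 4 of the 6 genes, and Irx1 and Ttr are named only. A match is a run of letters and not a binding site, and no assay of binding was part of these data.

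The islet label was checked on the hormone genes. Gcg, which encodes glucagon, and Sst, which encodes somatostatin, were well above background on all 8 arrays. The 75th percentile of the processed signal ranged from 280 to 640 on pancreatectomy arrays and from 178 to 655 on sham arrays. Between 59.1% and 71.4% of probes were well above background on pancreatectomy arrays, and between 48.1% and 70.9% on sham arrays. Pairs of arrays correlated across genes, which are not independent replicates, with r from 0.960 to 0.993 within a group and from 0.949 to 0.987 between groups.

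Several arrays stood apart in transcripts of other tissues. Over 15 liver genes, the mean log2 difference from sham replicates 1, 2 and 3 was 6.55, 0.23, 1.64 and 5.78 on pancreatectomy replicates 1 to 4, and 6.47 on sham replicate 4. Pancreatectomy replicate 3 stood at 6.17 over 5 B-cell genes and at 3.19 over 7 gut genes, and pancreatectomy replicates 1 and 3 stood at 2.90 and 2.26 over 7 fibroblast genes. Macrophage genes stood at 1.79 and 1.39 on those same arrays and T-cell genes at 2.97 on pancreatectomy replicate 3. Acinar genes ran from -0.44 to 1.32 on pancreatectomy arrays and from -1.68 to 1.30 on sham arrays, and erythroid genes from 0.53 to 1.33 on pancreatectomy arrays and from -0.46 to 0.54 on sham arrays. No gene of these lists passed the threshold between the groups. Results are therefore also given without the 3 arrays with liver transcripts, and without those and pancreatectomy replicate 3, which leaves 1 pancreatectomy array against 3 sham arrays.

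The comparison of pancreatectomy with sham arrays asks how islet transcripts stand 3 days after the operation. Values are log2 processed signals, shifted so that the arrays share their 75th percentile, and differences are pancreatectomy minus sham with the standard error (SE) of the limma fit. In that fit 194 of 30864 features (0.629%) passed an adjusted p of 0.05, of which 26 (0.0842%) were lower after pancreatectomy. None of the 5 measured genes, 0 of 5, passed, and nothing is read from this count because the genes were selected on this contrast. All pancreatectomy arrays lay below all sham arrays for 1630 of 30767 features measured on every array (5.3%), and for Irx1 and Irx2 among the 5 genes.

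Irx1 had the largest difference of the 5 measured genes, and it was lower after pancreatectomy. Its probe lies at mm9 chr13:72095735-72095794 on the minus strand. The normalized log2 signal was 8.44, 9.46, 9.94 and 9.39 on pancreatectomy replicates 1 to 4, against 11.54, 10.92, 11.04 and 10.82 on sham replicates 1 to 4. The highest pancreatectomy array stayed below the lowest sham array, and pancreatectomy replicate 1 lay below the other 3. The means were 9.31 ± 0.63 after pancreatectomy and 11.1 ± 0.32 after sham (SD, n = 4 each). The difference was -1.77 ± 0.31 (SE), or 3.41-fold lower, and 0.0259% of all features had a lower difference. Irx1 was selected on this contrast, so this rank is a description only. In islet RNA, fewer cells of a type and less RNA per cell cannot be told apart, and this holds for every gene below.

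Irx2 had the same arrangement of arrays. Its brighter probe, at mm9 chr13:72771499-72771558 on the plus strand, had 7.43, 8.25, 8.43 and 8.04 on pancreatectomy replicates 1 to 4, against 9.89, 9.22, 9.23 and 9.19 on sham replicates 1 to 4. The groups did not overlap, pancreatectomy replicate 1 was again the lowest array and sham replicate 1 the highest. The means were 8.04 ± 0.43 after pancreatectomy and 9.38 ± 0.34 after sham (SD, n = 4 each), a difference of -1.35 ± 0.26 (SE), or 2.54-fold lower. The second Irx2 probe, at chr13:72768784-72768843, was dim, with 4.39, 4.85, 5.16 and 4.57 after pancreatectomy, against 6.17, 5.73, 5.03 and 5.99 after sham. It differed in the same direction, by -0.99 ± 0.27 (SE), but here the groups overlapped. Sham replicate 3, at 5.03 and not well above background, lay below pancreatectomy replicate 3 at 5.16.

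**Figure D1:**
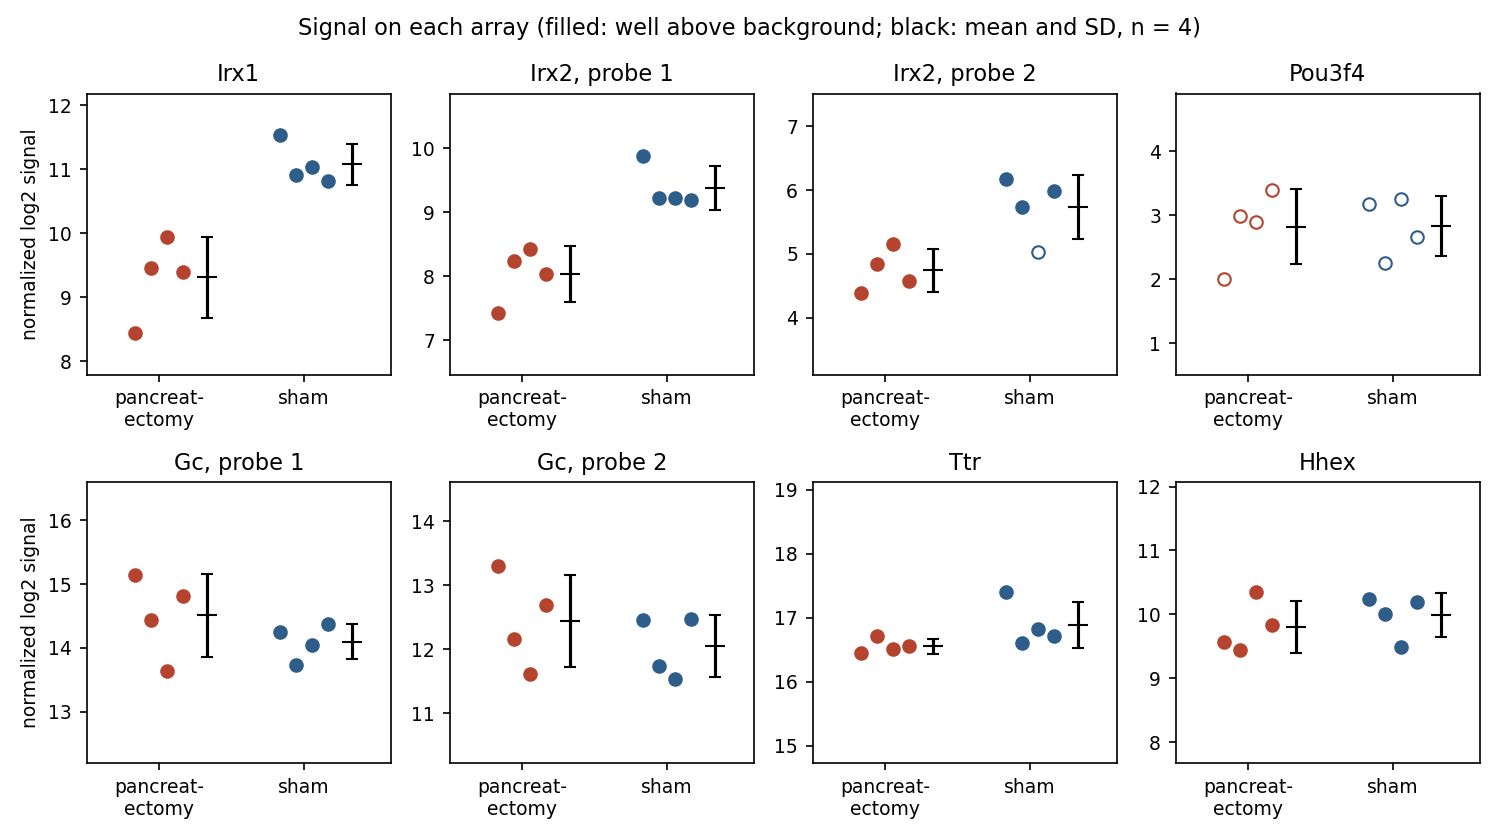
Normalized log2 signal (vertical axis, each panel spanning the same log2 range) of the 8 probes on the 4 pancreatectomy arrays (red) and the 4 sham arrays (blue), in replicate order within a group. Filled points are well above background, open points are not, and the black bars give the mean and SD of 4 arrays. The groups are apart for Irx1 and for Irx2 probe 1, and overlap for the other 6 probes.

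The Irx1 and Irx2 differences had the same sign in both slide rows. Irx1 differed by -2.28 in row 1 and by -1.26 in row 2, with 2 arrays against 2 in each, and Irx2 by -1.72 and -0.98. Without the 3 arrays with liver transcripts the differences were -1.46 for Irx1 and -1.11 for Irx2. Without all 4 arrays that stood apart they were -1.71 and -1.20, from pancreatectomy replicate 2 alone against 3 sham arrays. Both differences were below 0 in each slide row and in each of these sets of arrays. Since the groups did not overlap for Irx1 or the brighter Irx2 probe, this sign was fixed in advance. Nothing is read from it. No comparison was made among only the arrays with liver, gut or B-cell transcripts, and the part of those transcripts was not tested.

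Set against the glucagon gene Gcg on the same array, Irx1 and Irx2 were lower after pancreatectomy. Both genes were selected on this contrast and Gcg differed by only -0.50, so lower mean ratios follow from the selection. The ratios are given as a description, and no share over all features is given for them. The log2 ratio of Irx1 to Gcg, centred on its sham mean, was -1.67, -1.36, -0.88 and -1.19 on pancreatectomy replicates 1 to 4, against 0.49, -0.11, -0.53 and 0.15 on sham replicates 1 to 4. The ratio of Irx2 to Gcg was -0.97, -0.88, -0.70 and -0.85 after pancreatectomy, against 0.55, -0.11, -0.65 and 0.21 after sham. Neither ratio overlapped between the groups, although pancreatectomy replicate 3 and sham replicate 3 lay close together for Irx2. The ratio of Irx1 to Irx2 also differed, by -0.42, with -0.69 to -0.18 after pancreatectomy and -0.066 to 0.12 after sham. The ratio of Irx1 to Irx2 used the brighter Irx2 probe and restates the differences of genes selected on this contrast. Nothing further is read from any of these ratios.

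Other alpha-cell genes were described one by one, for 8 measured genes. The list they come from was compiled with earlier results of these arrays known and is reported here only in part, so no count or median over it is given.

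Gcg, the glucagon gene itself, had 17.54, 18.26, 18.26 and 18.02 on pancreatectomy replicates 1 to 4, against 18.48, 18.46, 19.01 and 18.11 on sham replicates 1 to 4. These overlap through sham replicate 4, and the difference was -0.50 ± 0.24 (SE), with a limma adjusted p of 0.514. Slc38a5, a glutamine transporter of alpha cells, differed by -0.48 ± 0.19 (SE), with a limma adjusted p of 0.435.

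The remaining genes described spread on both sides of 0. Slc7a2, a transporter of cationic amino acids, differed by -0.31. Pcsk2, the convertase that makes glucagon from its precursor, differed by -0.21, Tm4sf4 by -0.12, Dpp4 by -0.10 and Smarca1 by 0.035. Fap, a membrane protease that fibroblasts also make, had the one large positive difference, 1.26 ± 0.55 (SE), and an SD of 1.29 after pancreatectomy against 0.21 after sham. Fibroblast genes stood high on 2 of those arrays, and their part in the Fap value was not tested. None of these 6 passed the threshold.

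**Figure D2:**
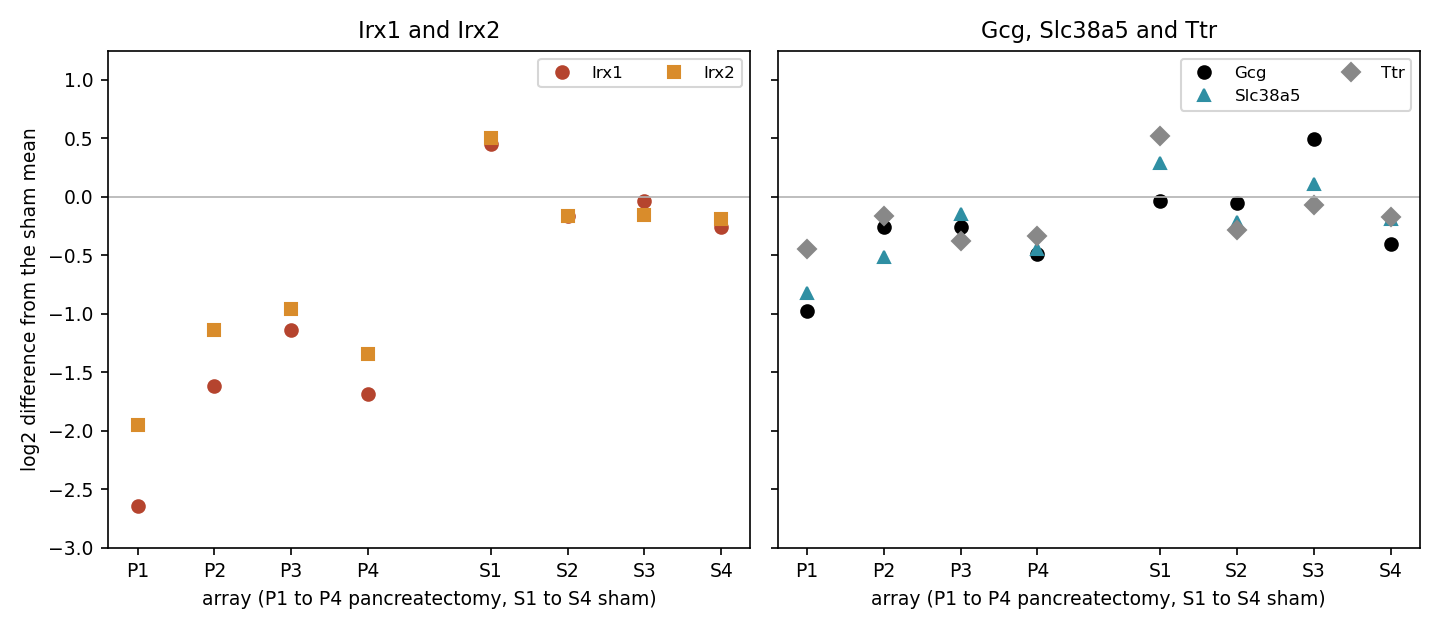
Log2 difference from the mean of the 4 sham arrays (vertical axis) on each array (horizontal axis, P1 to P4 pancreatectomy, S1 to S4 sham). Left, Irx1 and Irx2 lie below every sham array on all 4 pancreatectomy arrays. Right, Gcg, Slc38a5 and Ttr differ less, and for each at least 1 sham array lies among the pancreatectomy arrays.

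Genes whose array profile was most like those of Irx1 and Irx2 were found by the root mean square of the log2 differences between profiles, each centred on its sham mean, over 8 arrays and 16458 genes. Since they were picked for their likeness to a selected gene on the same arrays, their differences are a description. Nearest to Irx1 was Irx2, at 0.33, followed by Neurog3 at 0.36, which differed by -2.11, and Kcnh5, a potassium channel gene, at 0.40, which differed by -1.60. Dnah11, an axonemal dynein gene, and Gramd2 came next, both at 0.42, with differences of -1.26 and -1.89. Kcnh5 was dim after pancreatectomy, at 4.21 to 4.54, and was not well above background on pancreatectomy replicate 2.
Nearest to Irx2 were Dnah11 at 0.19, Hhatl at 0.23, Fam166c at 0.32, and H3c15, a histone gene, and Itpr1, a calcium release channel gene, both at 0.33. Their differences ran from -1.26 for Dnah11 to -0.99 for Itpr1. Irx1 was number 7 in this order. Of the other 3 measured genes, Ttr stood at rank 1423 of 16458 from Irx1 and 1026 from Irx2, Hhex at 3785 and 3763, and Gc at 14609 and 14522.

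Other Iroquois genes were measured at low levels, and none of 3 passed the threshold. Irx3, at mm9 chr8:94322476-94322535, differed by 0.25 ± 0.32 (SE). Irx4, which lies beyond Irx2 in the same cluster at chr13:73406712-73406771, had 6.40, 7.43, 6.75 and 6.94 after pancreatectomy, against 6.96, 6.61, 7.42 and 8.03 after sham. The groups overlapped, the difference was -0.38 ± 0.33 (SE), and it was 0.13 in slide row 1 and -0.88 in row 2. Without the 3 liver arrays, 0 of these 3 Iroquois genes lay below 0. Irx6, at chr8:95203880-95203939, differed by 0.59 ± 0.49 (SE), with 1 sham array not well above background. Irx5 was well above background on 0 arrays and has no fold change.

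Around the Irx1, Irx2 and Irx4 genes, which are 676 and 635 kb apart on chromosome 13, other features were lower about as often as higher. In a window reaching 1 Mb beyond both ends (mm9 chr13:71095735-74406771), 26 features outside the Iroquois genes were measured. Their median difference was 0.014, against -0.037 for all features. Of the 26, 12 lay below 0, against 54.9% of all features, and 0 of these 12 passed the threshold. In 2 of the 26, all pancreatectomy arrays lay below all sham arrays, against 5.3% of all features measured on every array. These were Slc12a7, a potassium-chloride cotransporter gene, at -0.72 and Mrpl36, a mitochondrial ribosomal protein gene, at -0.41. Both features that passed were higher. They were Trip13, a mitotic and meiotic ATPase gene, which rose by 2.46 ± 0.28 (SE, limma adjusted p 0.00857), and a probe without a gene symbol. This probe rose by 1.55 (limma adjusted p 0.0183) and is annotated to a long intergenic non-coding RNA. Other kept probes of that RNA on the same strand differed by -0.16, -0.0094, 0.28 and 0.33, and none of them passed. Several of the 26 features are probes of this RNA locus, on either strand. The median and counts above therefore do not rest on 26 separate transcripts.

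**Figure D3:**
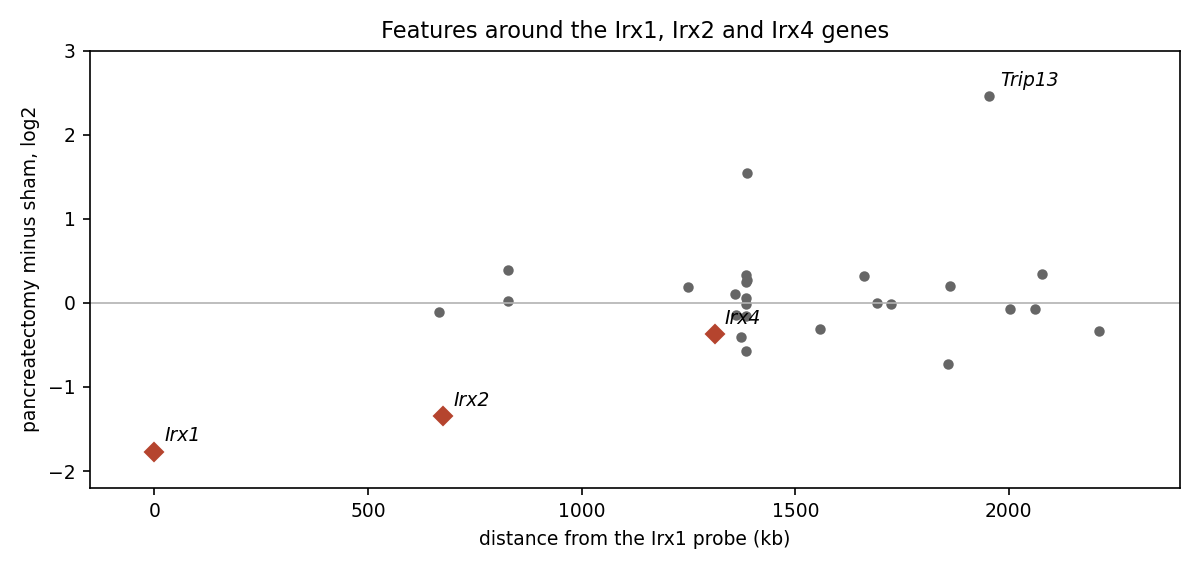
Pancreatectomy minus sham difference in log2 signal (vertical axis) of measured features against their distance in kb from the Irx1 probe (horizontal axis) on chromosome 13. Red diamonds are Irx1, Irx2 and Irx4 and grey points the other 26 features; Irx1 at -1.77 and Irx2 at -1.35 lie lower than every other point, of which the lowest is at -0.72.

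Gc differed in the other direction, by less than its spread. Its brighter probe, at mm9 chr5:89846592-89846651 on the minus strand, had 15.14, 14.44, 13.64 and 14.81 on pancreatectomy replicates 1 to 4, against 14.25, 13.74, 14.04 and 14.37 on sham replicates 1 to 4. The groups overlapped, and pancreatectomy replicate 3 was the lowest of all 8 arrays. The means were 14.5 ± 0.65 after pancreatectomy and 14.1 ± 0.28 after sham (SD, n = 4 each), a difference of 0.41 ± 0.31 (SE). A second probe, at chr5:89864029-89864558, had 13.31, 12.16, 11.62 and 12.69 after pancreatectomy, against 12.45, 11.73, 11.53 and 12.48 after sham, a difference of 0.40 ± 0.38 (SE). Both probes were highest on pancreatectomy replicate 1.

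In each group the array with the highest Gc by the brighter probe carried liver genes, with pancreatectomy replicate 1 at 6.55 on the liver list and sham replicate 4 at 6.47. Gc on sham replicate 4, at 14.37, was close to 14.25 on sham replicate 1 and below 14.44 on pancreatectomy replicate 2, neither of which carried them. The part of liver transcripts in the Gc values was not tested. Alb, the albumin gene, had 14.89, 2.11, 4.34 and 12.62 on pancreatectomy replicates 1 to 4, against 4.17, 3.99, 4.90 and 13.79 on sham replicates 1 to 4. Without the 3 arrays with liver transcripts the Gc difference was 0.033, and in slide row 2 it was 0.019, against 0.80 in row 1. It was 0.20 without pancreatectomy replicate 1 and 0.70 without pancreatectomy replicate 3. On the 5 arrays that stood at 1.64 or less on the liver list, Gc was still bright, at 14.44 and 13.64 after pancreatectomy and at 13.74 to 14.25 after sham. Relative to Gcg the Gc ratio differed by 0.91, with -0.20 to 2.02 after pancreatectomy and -0.55 to 0.67 after sham, so these overlapped as well.

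Ttr was bright and even. Its probe, at mm9 chr18:20828519-20828577 on the plus strand, had 16.44, 16.72, 16.51 and 16.55 on pancreatectomy replicates 1 to 4, against 17.41, 16.60, 16.82 and 16.71 on sham replicates 1 to 4. Sham replicate 1 stood above the other 7 arrays, which lay between 16.44 and 16.82. The means were 16.6 ± 0.12 after pancreatectomy and 16.9 ± 0.36 after sham (SD, n = 4 each), a difference of -0.33 ± 0.20 (SE). Without sham replicate 1 it was -0.15. Without the 3 liver arrays it was again -0.33, and the 3 liver arrays were at 16.44 and 16.55 after pancreatectomy and at 16.71 after sham. Relative to Gcg, Ttr differed by 0.17 with overlapping groups.

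Genes that work with these carriers gave little beyond single values. Among genes of thyroid hormone and retinol transport, also reported in part, Dio2, which activates thyroxine, was well above background on 2 of 4 arrays in each group and differed by 0.72. The thyroid hormone receptor genes Thra and Thrb differed by -0.51 and -0.31, and Dio1 by -0.062. None of these 4 passed the threshold.
None of 4 measured vitamin D genes passed. Vdr, the vitamin D receptor, had 11.31, 11.51, 11.37 and 12.06 after pancreatectomy, against 12.76, 12.40, 12.69 and 12.18 after sham. The groups did not overlap, and the difference was -0.95 ± 0.21 (SE), with a limma adjusted p of 0.141. Cyp2r1 and Cyp27b1, which activate vitamin D, differed by 0.31 and 0.15, and Lrp2, the receptor that takes up the Gc protein, by 0.15.

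Hhex had the smallest difference of the 5 measured genes. Its probe, at mm9 chr19:37514969-37515028 on the plus strand, had 9.56, 9.44, 10.35 and 9.84 on pancreatectomy replicates 1 to 4, against 10.25, 10.01, 9.49 and 10.20 on sham replicates 1 to 4. The highest of all 8 arrays was pancreatectomy replicate 3 and the groups were interleaved. The means were 9.80 ± 0.40 after pancreatectomy and 9.99 ± 0.34 after sham (SD, n = 4 each), a difference of -0.19 ± 0.25 (SE). The difference had opposite signs in the slide rows, -0.63 in row 1 and 0.25 in row 2. Pancreatectomy replicate 3 is the array with B-cell and gut transcripts, and B cells are known to express Hhex. Without that array the difference was -0.37, without the 3 liver arrays it was -0.024, and without all 4 it was -0.48. Over acinar genes pancreatectomy replicate 3 stood at 1.32, sham replicate 1 at 1.30 and sham replicate 3 at -1.68. Pancreatectomy replicate 2, the array with the lowest Hhex, stood at 0.17 on that list. The part of B cells or of acinar cells in the Hhex values was not tested.

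**Figure D4:**
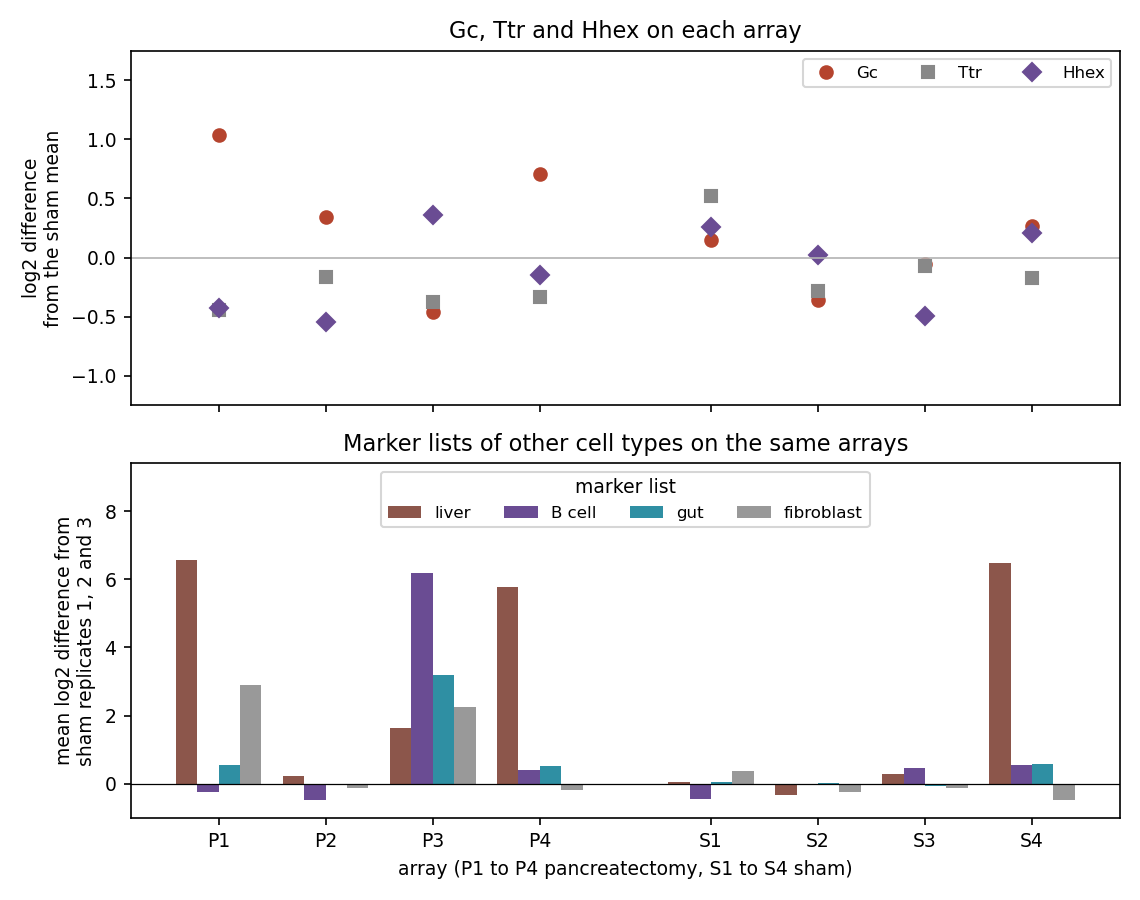
Top, log2 difference from the mean of the 4 sham arrays for Gc, Ttr and Hhex on each array (P1 to P4 pancreatectomy, S1 to S4 sham). Bottom, mean log2 difference of 4 marker lists from sham replicates 1, 2 and 3 on the same arrays. Gc is highest on P1, where liver genes stand at 6.55, and Hhex is highest on P3, where B-cell genes stand at 6.17.

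The delta-cell list beside Hhex had 7 measured genes, of which 0 passed the threshold. Its median was -0.15, or -0.081 without the 3 liver arrays and 0.019 without all 4 arrays that stood apart. Rbp4, retinol-binding protein, which delta cells make in quantity and which pairs with transthyretin in blood, had 14.44, 14.40, 14.64 and 14.61 after pancreatectomy, against 15.01, 14.71, 15.01 and 15.29 after sham. Its groups did not overlap and its difference was -0.48 ± 0.16 (SE), with a limma adjusted p of 0.350. Sst itself differed by -0.15 ± 0.15 (SE) and Crhr2 by -0.15. The ghrelin receptor gene Ghsr, which marks delta cells in mouse islets, differed by -0.38, Cckbr by 0.54, Lepr by 0.26 and Spock3 by 0.14. Relative to Sst, Hhex differed by -0.038 and the groups overlapped.

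Pou3f4 was not detected. Its probe, at mm9 chrX:108010778-108010837 on the plus strand, had processed signals of 5.90, 5.12, 9.02 and 9.14 on pancreatectomy replicates 1 to 4, against 11.6, 6.03, 3.92 and 9.58 on sham replicates 1 to 4. It was well above background on 0 of 8 arrays, so no fold change is given. Among its relatives of the POU class 3 family, Pou3f1 was measured on all arrays and differed by 0.0087, with a sign that depended on the scaling. Pou3f2 and Pou3f3 were too dim to be kept.

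The other endocrine genes give the setting of these values. Ppy, Pyy and Ghrl, hormone genes of PP and epsilon cells, differed by 0.44, 0.35 and 0.46, and none passed, although Ppy did with quantile scaling. Of 15 genes shared by endocrine cells 0 passed, with a median of -0.14 and 11 of 15 below 0, against 54.9% of all features. The count was 15 of 15 with median scaling, 10 of 15 with quantile scaling and 14 of 15 without the 3 liver arrays. Without all 4 arrays that stood apart it was 7 of 15, from 1 pancreatectomy array against 3 sham arrays. Within this list the homeobox genes Pax6 and Isl1 differed by -0.42 and -0.46, Foxa2 by -0.52, and Pcsk1n, an inhibitor of prohormone convertase, by -0.64. Scg3 and Uchl1 were near 0, at 0.0090 and -0.013. Of 10 beta-cell genes 0 passed, with a median of -0.40 and 9 of 10 below 0. This count was also 9 of 10 without the 3 liver arrays, and 6 of 10 without all 4 arrays that stood apart. Nkx6-1 differed by -0.65, Slc2a2 by -0.64, Ucn3 by -0.59 and Pdx1 by -0.51, while Ins1 and Iapp differed by -0.082 and -0.059.

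**Figure D5:**
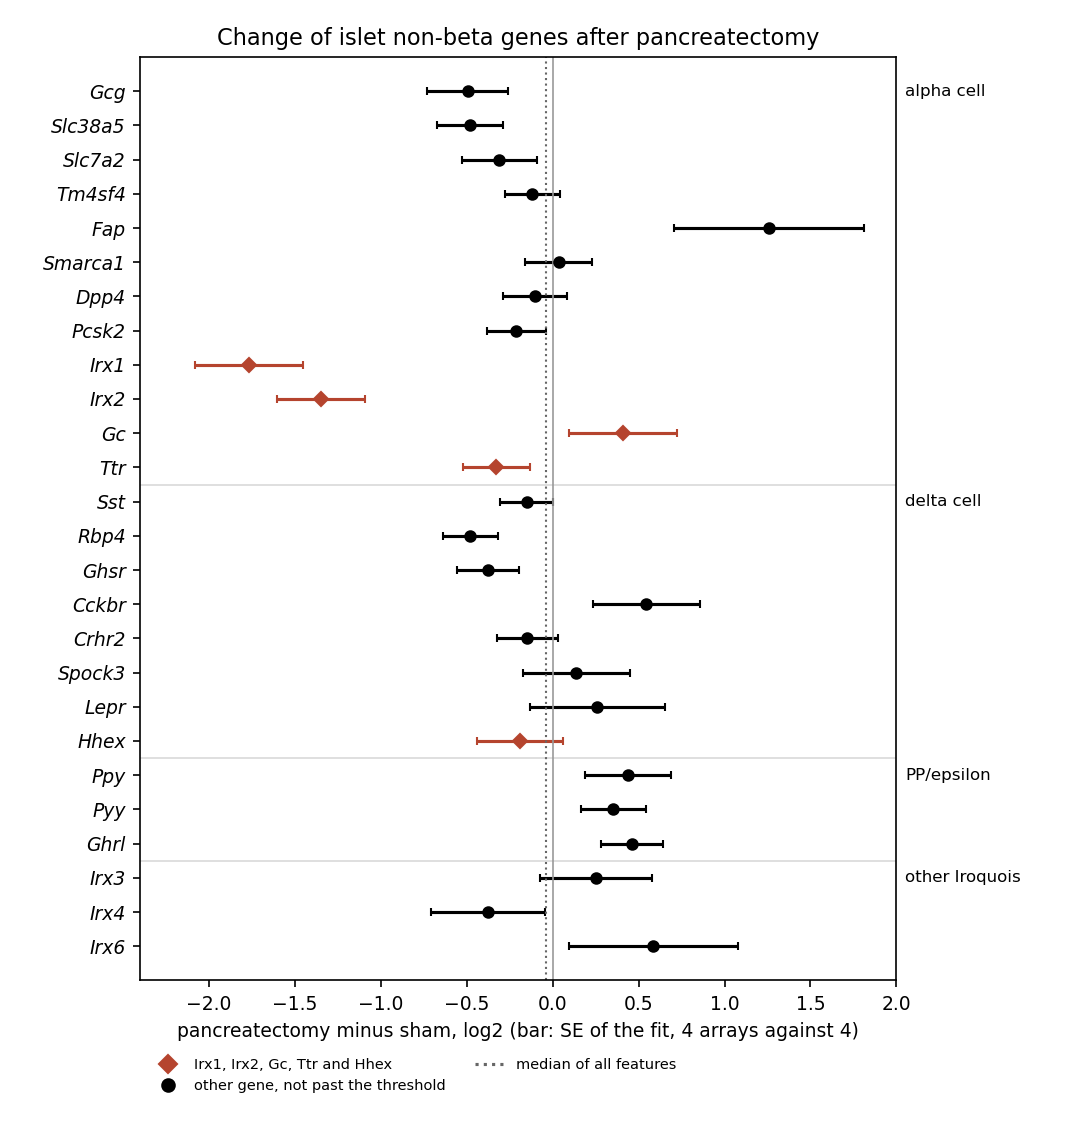
Difference in log2 signal, pancreatectomy minus sham (horizontal axis), with the SE of the fit over 4 arrays against 4, for the reported alpha-cell, delta-cell, PP and epsilon-cell and other Iroquois genes. Red diamonds are the selected genes, black points other genes, none of them past the threshold, and the dotted line is the median of all features at -0.037; among the genes shown, Irx1 at -1.77 and Irx2 at -1.35 are those below -1.

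In the authors' deposited table, which gives 1 average per group, the differences were -1.77 for Irx1, -1.34 for Irx2, 0.42 for Gc, -0.32 for Ttr and -0.18 for Hhex. Over 30864 features the differences in the authors' deposited table and those of the fit had a slope of 0.999.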

How the data were processed

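Total RNA of islets was hybridised to one-colour Cy3 arrays. In the deposited scanner files each spot has a linear intensity. The file headers name Feature Extraction 10.7.3.1; version 9.1 stands in the submitters' processing notes. The processed intensity was already corrected for background and detrended, per the file headers. Group averages of raw intensity and of a log2 value, shifted by the 75th percentile in GeneSpring GX 12.5 per its header, are in the authors' deposited table.

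From these, log2 of the processed signal was shifted by each array's 75th percentile. Control and outlier spots were left out. Probes well above background on at least 4 of 8 arrays, with at least 3 values per group, were kept, and the brightest represents its gene. Symbols come from the deposited table and were updated through Entrez IDs (30994 of 33325 probes matched). Probe positions (mm9) are the array design's, and no exon annotation was used. The comparison used limma 3.58.1 under R 4.3.3, with Benjamini-Hochberg adjustment over 30864 features. With 4 arrays a group, the median SE was 0.22. On simulated data with 200 changed genes among 30767, limma recovered 43.3%, 82.1% and 95.5% of log2 changes of 1, 2 and 3, with 4 false calls. The simulated noise was normal and drawn for each gene separately, without blocks of liver or B-cell genes moving together. These rates may therefore not hold for the real arrays.

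The genes, lists and tests were chosen with earlier results of these data known. Some list genes are not reported here, and they were also left out of the search for nearest profiles. Beside the selected genes, the text names genes of the islet lists that passed the threshold, up to 4 per list with the largest and 2 with the smallest difference, the 5 nearest profiles to Irx1 and Irx2, and, chosen after their values were seen, a few further list genes and the features that stand out around the Irx genes. Alternatives were another background correction (normexp, on median signals because the files hold no mean signal), scalings, filters, probe averaging, array weights, an intensity trend, slide row, and arrays left out.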

Additional observations from a re-analysis of the deposited data

Results flagged for a closer look

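In 16 groups of 4 arrays over the selected genes and the other Iroquois genes, 2 held 1 array far from the rest, by a gap over Dixon's 95% critical value for 4 samples. Chance flags about 1 in 20 groups. Irx2 had 9.89 on sham replicate 1, against 9.19 to 9.23 on the other sham arrays. Irx6 had 3.03 on sham replicate 3, where it was not well above background, against 5.11 to 5.28 on the other sham arrays.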

How the results depend on the processing

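The Irx1, Irx2 and Ttr differences kept their sign under all 23 alternatives, and Gc stayed above 0. Within slide rows and with arrays left out, the Irx1 and Irx2 signs were fixed in advance, because their groups did not overlap. Irx1 moved beyond its spread within slide rows, to -2.28 in row 1 and -1.26 in row 2, and ran from -1.98 to -1.48 with 1 array left out. Hhex moved to -0.63 in row 1 and reversed to 0.25 in row 2. The cause was not tested. Of the 5 measured genes, 2 (Irx1 and Irx2) passed with median scaling, array weights or an intensity trend, and 1 (Irx1) with the stricter filter, as did 0 to 1 with 1 array left out (Irx1 without pancreatectomy replicate 3). Median scaling put the median of all features at -0.16. Among 30864 features, median scaling called 130 higher and 48 lower, array weights 488 and 533, and an intensity trend 187 and 35. The stricter filter called 93 higher and 33 lower of 21663 features. Leaving out pancreatectomy replicate 3 gave 126 and 14. Nothing is read from the counts of selected genes, because these genes were selected on this contrast.

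Against 168 features called higher and 26 lower, normexp gave 54 and 6, no filter 68 and 4, array weights 488 and 533, and the slide row as a block 111 and 11. Stricter filtering gave 93 higher and median scaling 48 lower. No scaling gave 18 and 0, with 388 features at an unadjusted p under 0.05 in limma. Within rows 1 and 2, limma called 0 either way, with 2021 and 896 at an unadjusted p under 0.05. Without the 3 liver arrays and without all 4 it called 0, with 1354 and 1649. Leaving out 1 array gave 56 to 165 higher (56 without sham replicate 2, 57 without pancreatectomy replicate 4) and 3 to 32 lower (3 without sham replicate 2). No paired analysis was possible because the replicate numbers only name arrays and nothing in the labels ties an array of 1 group to an array of the other. Dim signal limits Pou3f4, Irx5, Dio2, Lrp2, Cckbr, Spock3, Irx6, Kcnh5 and the second Irx2 probe. Lrp2 was well above background on 3 of 4 arrays in each group, and Cckbr, Spock3 and Irx6 on 3 of 4 sham arrays.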
